A study of Mus musculus with 8 samples.

Results

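Of the genes known to respond when a muscle fibre loses its nerve, 7 that act away from the neuromuscular junction are described here in the quadriceps of tumor-bearing mice: Hdac4, Hdac9, Dach2, Runx1, Sik1, Ncam1 and Emb. They were taken by gene symbol from a table of 53819 symbols, and all 7 were counted deeply enough to be among the 14070 genes tested. In the tumor group, C57BL/6J mice that were 8 weeks old at the start received 500000 B0092 cells, a head and neck squamous cell carcinoma line, in 200 uL of phosphate-buffered saline under the skin of the nape (n = 4). Control mice of the same strain and age received the saline vehicle alone (n = 4). All mice had a wild-type genotype per the labels, and muscle was taken on day 36. The design text puts weight loss at about 10% at that time, without giving it by group. The tumors came from 1 cell line, so differences between tumors of other origin were not sampled.

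Loss of nerve activity switches on a transcriptional programme in the fibre. In mouse muscle, the class IIa histone deacetylase HDAC4 accumulates after denervation and represses the genes of 2 other repressors, Dach2 and Hdac9, which releases myogenin and, through it, the acetylcholine receptor genes. RUNX1 is induced in the same setting and limits wasting of the denervated fibre, while the adhesion molecules NCAM1 and embigin spread over the fibre surface. SIK1 is a kinase induced by cyclic AMP that phosphorylates class IIa deacetylases and holds them outside the nucleus.

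In tumor-bearing mice Sik1 and Runx1 rose and Hdac9 fell, while Hdac4, Dach2, Ncam1 and Emb did not pass the test. The test was the edgeR quasi-likelihood test on counts, with Benjamini-Hochberg adjustment over all 14070 genes and a threshold of 0.05. In simulated data it called 36 of 100 genes with a 2-fold change, so not passing does not show a gene to be unchanged. The simulation changed far fewer genes than were called here, which made its adjusted threshold stricter. The 36 of 100 is therefore not the sensitivity of the real test. Of the 7 genes, 3 changed, beside 19.8% of all genes tested: 2 were higher, beside 11.0% of all genes, and 1 was lower, beside 8.73% of all genes. The values of all 4 tumor libraries lay on the same side of all 4 control values in 2 of the 7 genes, Sik1 and Hdac9, beside 25.0% of all genes tested. The median log2 fold change was 0.37 over the 7 genes and 0.00 over all tested genes. The median size of the log2 fold change, regardless of sign, was 1.28 over the 7 genes and 0.37 over all tested genes. The 7 genes and the gene lists used below were chosen with earlier results of these data known. These shares and medians, and the counts from those lists, therefore cannot show whether the chosen genes respond more than other genes. Counts in those lists are to be read beside the same shares of all genes. Levels below are counts per 1000000 (CPM) scaled to the library, with SD over the 4 libraries of a group, and fold changes are tumor over control.

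**Figure D1:**
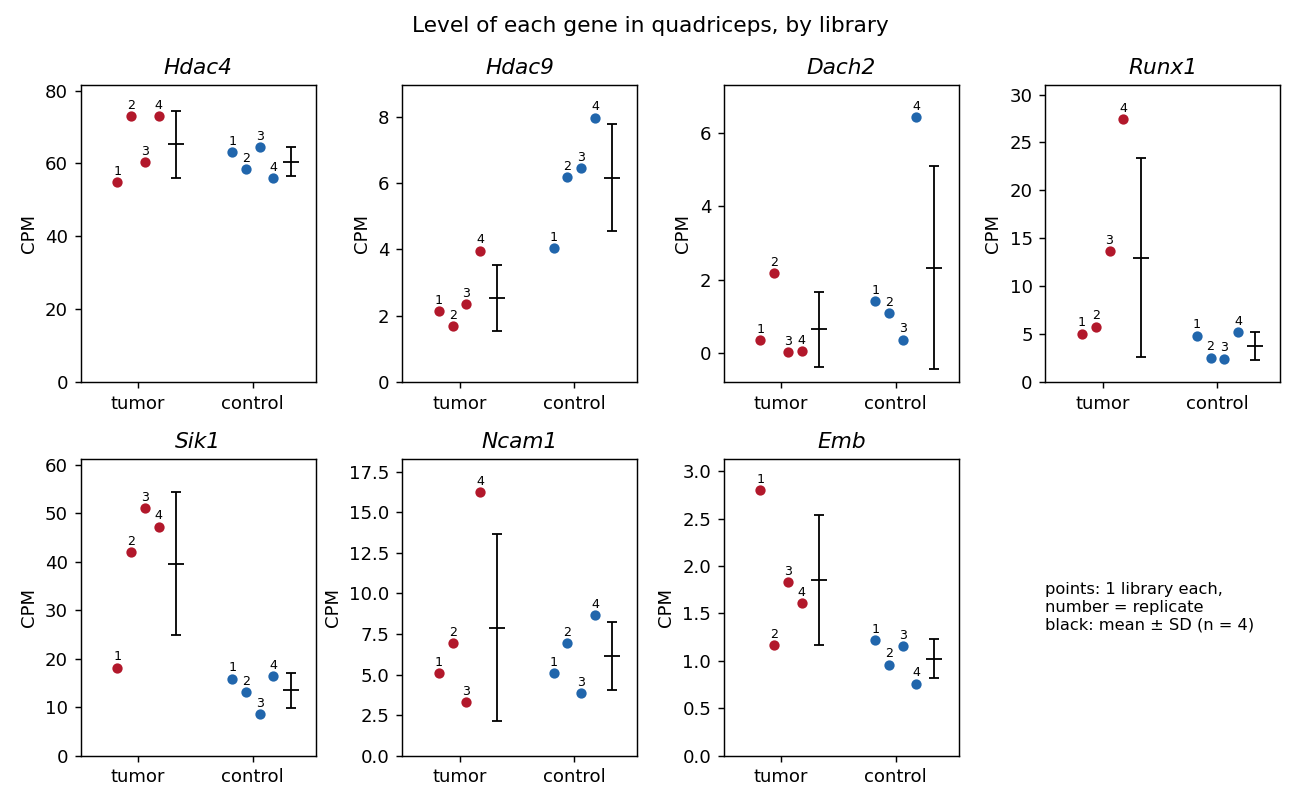
Level of each of the 7 genes in CPM (vertical axis, from or just below 0) in the 4 tumor and the 4 control libraries (points, numbered by replicate), with the mean and SD in black. Sik1 in tumor libraries (18.2 to 51.1 CPM) lies above all controls, Hdac9 in tumor libraries (1.69 to 3.96 CPM) lies below all controls, and tumor library 4 holds the highest Runx1 and Ncam1.

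The libraries held 28436205 to 36139462 counts. Fibre markers were abundant, as the labelled tissue requires: all 8 of a myofibre list were tested, and their summed level was 105232 to 212660 CPM in tumor libraries and 149665 to 206978 CPM in controls, with 0 higher and 1 lower (0 lower without tumor libraries 2 or 3 or any single control library, and 2 without tumor library 1). Control library 4 and tumor library 2 stood apart in fibre type. The share of Myh4, the fastest myosin heavy chain, in the adult myosin heavy chain CPM was 80.3% in tumor library 2, where the others of its group had 95.2% to 98.9%, and 64.6% in control library 4, where the others had 88.5% to 98.0%. Of 10 squamous carcinoma markers, 2 were tested and 1 rose, the transcription factor gene Trp63 (3.01-fold). The summed level of the 10 was 17.4 to 38.4 CPM in tumor libraries and 7.62 to 10.7 CPM in controls, without overlap. The keratin genes Krt5, Krt14, Krt6a and Krt17 and the desmoglein gene Dsg3 had 0 counts in all 8 libraries. In bulk tissue, fewer cells of a type and less RNA per cell cannot be told apart. The labels give no batch or date, so no within-batch values could be computed.

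Hdac4, the class IIa deacetylase at the head of the denervation pathway, did not pass the test. It measured 54.8, 73.0, 60.4 and 73.1 CPM in tumor libraries 1 to 4, against 63.1, 58.5, 64.4 and 56.0 CPM in control libraries 1 to 4. The groups overlapped, with tumor libraries 2 and 4 above all controls and tumor library 1 below them. The means were 65.3 ± 9.21 CPM in tumor mice and 60.5 ± 3.92 CPM in controls (SD, n = 4 each), with a log2 difference of 0.11 ± 0.13 (SE; adjusted p = 0.571, edgeR). Hdac4 was read from 1547 to 2545 counts a library and varied least of the 7 genes, with a ratio of highest to lowest library of 1.33 in tumor mice and 1.15 in controls. Messenger RNA does not report where the protein lies in the cell, which is how class IIa deacetylases are mainly regulated.

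Hdac9, a class IIa deacetylase that represses myogenin in innervated muscle, fell in tumor-bearing mice. Its level was 2.14, 1.69, 2.35 and 3.96 CPM in tumor libraries 1 to 4, against 4.04, 6.19, 6.45 and 7.97 CPM in control libraries 1 to 4. Every tumor library lay below every control, though tumor library 4 and control library 1 were close. Hdac9 averaged 2.53 ± 0.991 CPM in tumor mice and 6.16 ± 1.62 CPM in controls (SD, n = 4 each), a 2.43-fold fall (-1.28 ± 0.30 SE in log2 units; adjusted p = 0.0197, edgeR). The adjusted p was 0.0643 without tumor library 3 and 0.0513 without control library 2, and the call held without each of the other 6 libraries. Without control library 4 and tumor library 2 together the fall was 1.98-fold (adjusted p = 0.0492). Of 6 endothelial markers 3 fell, and their summed level was 63.3 to 113 CPM in tumor libraries and 129 to 192 CPM in controls, without overlap. Whether these cells had a part in the Hdac9 fall was not tested.

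The 2 start regions of Hdac9 that RefSeq lists are shown because counts per gene symbol do not tell transcripts of different starts apart. Each window runs from 250 bases before to 50 bases after the start, on the minus strand of GRCm38.p6, a build other than that of the counts. Capitals mark the E-box CANNTG, a motif of myogenic factors such as myogenin that reads the same on both strands.
Hdac9 upstream start, chr12:34917046-34917345: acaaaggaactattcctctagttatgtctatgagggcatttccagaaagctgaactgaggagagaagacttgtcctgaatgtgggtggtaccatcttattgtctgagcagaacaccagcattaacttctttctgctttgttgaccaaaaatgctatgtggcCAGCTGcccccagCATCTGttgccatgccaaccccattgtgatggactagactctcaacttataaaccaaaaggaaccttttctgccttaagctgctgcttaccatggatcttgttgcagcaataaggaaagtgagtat
Hdac9 downstream start, chr12:34528840-34529139: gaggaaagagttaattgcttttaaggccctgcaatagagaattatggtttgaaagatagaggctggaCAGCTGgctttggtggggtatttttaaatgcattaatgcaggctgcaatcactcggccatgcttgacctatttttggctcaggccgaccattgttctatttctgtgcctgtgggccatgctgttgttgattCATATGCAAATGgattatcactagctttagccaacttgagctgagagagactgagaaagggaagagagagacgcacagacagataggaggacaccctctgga
The upstream window held 2 E-boxes and the downstream window 3, none overlapping, and 72.3% of all 32851 such windows in the table held at least 1. The MEF2 consensus was in neither window and in 3.19% of all windows.

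Per length of the longest coding transcript, Hdac9 made up a small part of the class IIa deacetylases. Counts per gene symbol do not tell which transcripts were read. Where these were shorter, this length understates the level of the gene. Dividing CPM by the longest annotated coding transcript (7940 bases for Hdac9 and 8100 bases for Hdac4), Hdac9 held 1.18% ± 0.490 of the summed per-length level of Hdac4, Hdac5, Hdac7 and Hdac9 in tumor mice and 3.10% ± 0.737 in controls (SD, n = 4 each). Hdac4 held 29.5% ± 3.96 in tumor mice and 30.0% ± 2.46 in controls. Hdac5 held the largest part, 59.9% ± 5.54 in tumor mice and 54.0% ± 1.40 in controls, and Hdac7 held 9.45% ± 1.62 in tumor mice and 12.9% ± 1.89 in controls. Hdac5 and Hdac7 themselves did not pass the test (log2 fold changes of 0.29 ± 0.12 with adjusted p = 0.109 and -0.33 ± 0.17 with adjusted p = 0.202, edgeR).

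Dach2, a transcriptional corepressor that keeps myogenin low in innervated fibres, was the most variable of the 7 genes and did not pass the test. It measured 0.362, 2.17, 0.0321 and 0.0574 CPM in tumor libraries 1 to 4, from 11, 67, 1 and 2 counts. In control libraries 1 to 4 it measured 1.43, 1.09, 0.376 and 6.41 CPM, from 41, 33, 13 and 177 counts. Tumor libraries 1, 3 and 4 lay below all controls and tumor library 2 lay above 3 of them. In tumor libraries 3 and 4 the values lay under the level that 3 counts would give, 0.0964 and 0.0861 CPM. Dach2 averaged 0.657 ± 1.02 CPM in tumor mice and 2.33 ± 2.76 CPM in controls (SD, n = 4 each), -1.82 ± 1.16 (SE) in log2 units (adjusted p = 0.294, edgeR). Single libraries decided this value: it was -3.97 without tumor library 2 (adjusted p = 0.0426), -0.55 without control library 4 (adjusted p = 0.774) and -2.68 without both (adjusted p = 0.0587).

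The 3 libraries with the most Dach2 were also the 3 with the highest level of slow fibre markers. The summed level of 8 slow and oxidative fibre markers was 76.2, 1195, 147 and 183 CPM in tumor libraries 1 to 4, against 1679, 581, 88.5 and 11185 CPM in control libraries 1 to 4. Control library 4, with the most Dach2 of all libraries, had the highest sum, and tumor library 2, with the most Dach2 of its group, had the highest sum of its group. Of these 8 markers 6 were lower in tumor mice, with overlap between the groups in every marker, and Myl2 and Myl3 were at 0 in tumor library 4. This count rested on single libraries: it was 0 when tumor library 3 was left out, 1 for tumor libraries 1 or 4 or control library 1, 2 for control library 4 and 3 for tumor library 2, and limma-voom called 0. Tumor libraries 3 and 4 had less Dach2 than control library 3 (1 and 2 counts against 13) and higher marker sums. Tumor library 1 was close to control library 3 in both Dach2 (0.362 against 0.376 CPM) and marker sum (76.2 against 88.5 CPM). Hdac9 did not follow the same order: tumor library 2 had the least Hdac9 of all, and control library 3 had 6.45 CPM at one of the lowest sums. The part of fibre type in the Dach2 difference was not tested.

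**Figure D2:**
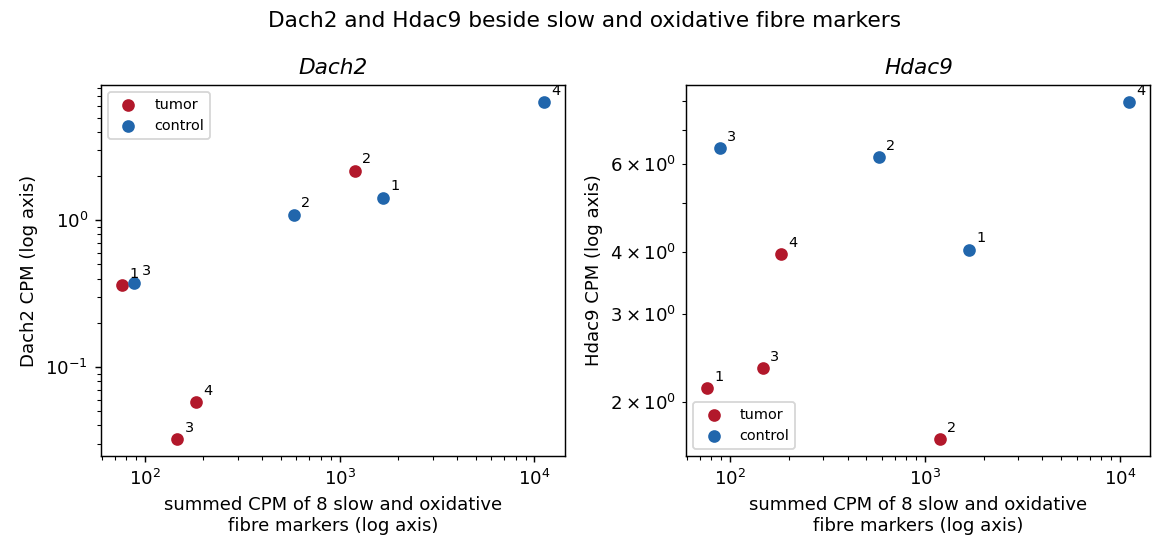
Dach2 (left) and Hdac9 (right) in CPM against the summed CPM of 8 slow and oxidative fibre markers, both axes logarithmic, 1 point per library numbered by replicate. Dach2 is highest in control library 4 (6.41 CPM at a sum of 11185 CPM), whereas Hdac9 in tumor library 2 is 1.69 CPM at a sum of 1195 CPM.

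Some listed partners of these repressors were read beside them. Eya1, a transcriptional coactivator gene, fell (log2 fold change -0.58 ± 0.18, adjusted p = 0.0461, edgeR), to 20.4 ± 4.24 CPM in tumor mice against 30.6 ± 5.73 CPM in controls (SD, n = 4 each), and this call was lost in 6 of the 8 fits with a library left out, all but those without tumor library 1 or control library 4. Dach1, the paralog of Dach2, showed a log2 difference of -0.45 ± 0.43 (adjusted p = 0.497). The 14 tested partners of class IIa deacetylases included the MEF2 factors, the NCoR corepressors and the 14-3-3 proteins. Of these 0 passed in edgeR, beside 19.8% of all genes tested, and 1 had an unadjusted p under 0.05 (Hdac5). DESeq2 and limma-voom called 0 as well. Hdac5 passed without tumor library 4 (adjusted p = 0.0473). Dnajb5, a chaperone of the HDAC4 redox complex, measured 147 ± 44.5 CPM in tumor mice and 204 ± 12.9 CPM in controls (SD, n = 4 each, adjusted p = 0.16). The median log2 fold change of the 14 partners was 0.16.

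Sik1, the kinase gene induced by cyclic AMP, rose, and was called under every alternative tried. It measured 18.2, 42.0, 51.1 and 47.3 CPM in tumor libraries 1 to 4, against 15.9, 13.1, 8.51 and 16.4 CPM in control libraries 1 to 4. All tumor libraries lay above all controls, although tumor library 1 exceeded control library 4 only slightly. Sik1 averaged 39.6 ± 14.8 CPM in tumor mice and 13.5 ± 3.62 CPM in controls (SD, n = 4 each), a 2.94-fold rise (1.56 ± 0.32 SE in log2 units; adjusted p = 0.011, edgeR). With any single library left out the log2 fold change was between 1.39 and 1.80 and the adjusted p between 0.00222 and 0.0404. Per length, Sik1 was at 8.77 ± 3.27 CPM per kilobase in tumor mice, close to Hdac4 at 8.06 ± 1.14, and at 2.98 ± 0.801 CPM per kilobase in controls, where Hdac4 was at 7.47 ± 0.484.

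Other kinases of class IIa deacetylases were read beside Sik1. Of 13 tested, 1 rose and 1 fell, beside 11.0% higher and 8.73% lower of all genes tested. These counts do not set the kinases apart from other genes. Sik3, a paralog of Sik1, rose (1.40-fold, log2 fold change 0.48 ± 0.09, adjusted p = 0.00988, edgeR). It reached 74.7 ± 3.85 CPM in tumor mice and 53.5 ± 1.34 CPM in controls (SD, n = 4 each). Mark2, a polarity kinase gene, fell 1.32-fold (adjusted p = 0.0489), and this call was lost in 7 of the 8 fits with a library left out, all but that without tumor library 2, which gave 2 rises. The third salt-inducible kinase gene, Sik2, showed a log2 difference of -0.22 ± 0.32 (adjusted p = 0.661).

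Genes that share the cyclic AMP switch with Sik1 were split in direction. Of 9 early target genes of the transcription factor CREB, 1 rose and 3 fell, with a median log2 fold change of -0.60. Per1, a clock gene, rose 5.98-fold, to 116 ± 23.3 CPM in tumor mice against 19.3 ± 9.29 CPM in controls (SD, n = 4 each; adjusted p = 0.00294, edgeR). The nuclear receptor genes Nr4a2 (13.7-fold, adjusted p = 0.0101) and Nr4a3 (5.28-fold, adjusted p = 0.0475) and the phosphatase gene Dusp1 (1.76-fold, adjusted p = 0.0324) fell. Nr4a2 measured 0.203 ± 0.0480 CPM in tumor mice and 2.85 ± 2.51 CPM in controls, limma-voom did not call it, and its fall was 9.10-fold without control library 1. The Nr4a3 call held in 1 of the 8 fits with a library left out, that without control library 3, and limma-voom did not make it. The Dusp1 call was lost without tumor libraries 1, 3 or 4 or control libraries 1 or 4. The count of rises was 2 without tumor library 2 or control library 4. Of 12 genes of the CREB and CRTC axis, 1 rose and 0 fell: Crtc2, a coactivator of CREB that SIK kinases restrain (log2 fold change 0.68 ± 0.16, adjusted p = 0.0173). That call was lost without tumor library 3 or control library 1, and without tumor library 4 the axis had 3 rises.

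Runx1, a transcription factor gene of blood formation that denervated fibres switch on, rose in tumor-bearing mice, by an amount that differed widely between animals. It measured 5.04, 5.78, 13.7 and 27.4 CPM in tumor libraries 1 to 4, against 4.84, 2.55, 2.43 and 5.22 CPM in control libraries 1 to 4. Tumor library 1 lay below control library 4, so the groups overlapped, and tumor libraries 3 and 4 stood well above the rest. The means were 13.0 ± 10.4 CPM in tumor mice and 3.76 ± 1.47 CPM in controls (SD, n = 4 each), a 3.46-fold rise (1.79 ± 0.54 SE in log2 units; adjusted p = 0.0436, edgeR). The call was near the threshold: it was lost without tumor libraries 3 or 4 or any single control library (adjusted p from 0.0568 to 0.111), with upper-quartile scaling (adjusted p = 0.0502) and by limma-voom (adjusted p = 0.0948). Without tumor library 4 the rise was 2.16-fold.

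White blood cell markers were read beside Runx1. Of 10 such markers 7 were tested, 1 rose (S100a8, a neutrophil gene) and 0 fell, and their summed level was 41.7, 14.5, 40.2 and 68.0 CPM in tumor libraries 1 to 4, against 21.9 to 39.4 CPM in controls. S100a8 was at 0 in control libraries 1 and 2, and its call was lost without tumor libraries 1, 3 or 4 or control libraries 1, 2 or 4, while 2 markers rose without tumor library 2. The median log2 fold change of the 7 tested markers was 0.11, with a range from -0.22 to 3.24. Tumor library 4 was highest in both Runx1 and the marker sum. The phagocyte gene Cd68, named after its values were seen, was highest there too, with 3.21 to 7.81 CPM in the other tumor libraries and 1.99 to 5.12 CPM in controls. Ptprc, the pan-leukocyte gene, was 0.584 to 3.16 CPM in tumor libraries and 1.27 to 2.44 CPM in controls. The lymphocyte genes Cd3e and Ncr1 were each at 0 in at least 1 library and at most at 0.313 CPM. The part of white blood cells in the Runx1 rise was not tested.

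RefSeq lists 2 start regions for Runx1, shown for the same reason as those of Hdac9, on the minus strand of GRCm38.p6. Capitals mark the RUNX motif TGTGGT, searched on both strands, so that a match on the other strand reads ACCACA.
Runx1 distal start, chr16:92826025-92826324: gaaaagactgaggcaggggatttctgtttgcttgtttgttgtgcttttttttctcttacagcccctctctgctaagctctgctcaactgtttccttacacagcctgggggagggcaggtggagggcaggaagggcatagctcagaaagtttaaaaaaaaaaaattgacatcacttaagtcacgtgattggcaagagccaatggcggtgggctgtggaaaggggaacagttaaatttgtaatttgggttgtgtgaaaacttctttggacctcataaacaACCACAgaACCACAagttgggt
Runx1 proximal start, chr16:92697280-92697579: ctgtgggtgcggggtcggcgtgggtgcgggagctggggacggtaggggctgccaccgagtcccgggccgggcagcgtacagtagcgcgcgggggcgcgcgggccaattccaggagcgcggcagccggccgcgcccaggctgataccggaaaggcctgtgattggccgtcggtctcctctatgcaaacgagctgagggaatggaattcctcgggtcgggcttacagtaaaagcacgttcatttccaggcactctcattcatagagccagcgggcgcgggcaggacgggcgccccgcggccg
The distal window held 2 matches, both after the start, and the proximal window 0, while 16.8% of all 32851 windows held at least 1. Of the 7 genes 5 had start regions in the table, with Ncam1 and Sik1 named only.

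In a list of RUNX paralogs and cofactors, 1 of 7 tested genes rose and 0 fell, beside 11.0% higher and 8.73% lower of all genes tested. In this list 1 fell without tumor library 2 or control library 3. Runx1t1, a corepressor gene best known as a fusion partner of RUNX1 in leukaemia, rose 4.31-fold, to 9.52 ± 5.56 CPM in tumor mice against 2.21 ± 0.541 CPM in controls (SD, n = 4 each; log2 fold change 2.11 ± 0.43, adjusted p = 0.0108, edgeR), and it was called with any single library left out. Cbfb, the obligate DNA-binding partner, showed a log2 difference of 0.06 ± 0.28 (adjusted p = 0.91). The paralog Runx2 lay between 0.132 and 1.19 CPM in all libraries, and Runx3 was too low to be tested.

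Ncam1, the neural cell adhesion molecule of fibres, satellite cells and Schwann cells, did not pass. It measured 5.10, 6.95, 3.31 and 16.2 CPM in tumor libraries 1 to 4, against 5.08, 6.95, 3.85 and 8.66 CPM in control libraries 1 to 4. Tumor library 4 held the highest value, tumor library 3 the lowest, and the other tumor libraries lay among the controls. The means were 7.90 ± 5.76 CPM in tumor mice and 6.13 ± 2.11 CPM in controls (SD, n = 4 each), with a log2 difference of 0.37 ± 0.46 (SE; adjusted p = 0.603, edgeR). Without tumor library 4 the log2 fold change was -0.27 (adjusted p = 0.61).

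Markers of the other cells that make Ncam1 moved unevenly. Of 10 Schwann cell markers 9 were tested, 1 rose (Ngfr, a neurotrophin receptor gene) and 0 fell, with summed levels of 24.9 to 68.1 CPM in tumor libraries and 29.1 to 70.2 CPM in controls. The Ngfr call was lost without tumor library 3 or control library 1, and 1 marker fell without tumor library 2. Of 7 satellite cell markers 6 were tested, 1 rose and 2 fell, with summed levels of 54.3 to 78.6 CPM in tumor libraries and 32.3 to 35.7 CPM in controls. The count of falls was 1 in 7 of the 8 fits with a library left out, all but that without tumor library 2. Cdh15, a cadherin gene of muscle precursors, rose 2.72-fold and carried most of that sum, while Pax7, the defining satellite cell gene, was at 2.32 ± 0.586 CPM in tumor mice and 2.47 ± 0.288 CPM in controls (SD, n = 4 each, adjusted p = 0.834, edgeR). Among 6 tested partners of NCAM1, 1 rose and 0 fell: Fgfr1, a growth factor receptor gene, rose 2.02-fold (log2 fold change 1.02 ± 0.16, adjusted p = 0.0049) and was called with any single library left out. The paralog Ncam2 and the polysialyltransferase gene St8sia2 were too low to be tested.

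Emb encodes embigin, an adhesion molecule that escorts monocarboxylate transporters to the membrane and that denervated mouse muscle makes in greater amount. It measured 2.80, 1.17, 1.83 and 1.61 CPM in tumor libraries 1 to 4, against 1.22, 0.959, 1.16 and 0.761 CPM in control libraries 1 to 4. Tumor libraries 1, 3 and 4 lay above all controls and tumor library 2 lay among them. The means were 1.85 ± 0.689 CPM in tumor mice and 1.02 ± 0.207 CPM in controls (SD, n = 4 each), from 21 to 85 counts a library. The log2 fold change was 0.85 ± 0.33 (SE) and did not pass (adjusted p = 0.101, edgeR), nor did it with any single library left out (adjusted p from 0.0594 to 0.234).

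Relatives and cargo of embigin did not pass the test. Of 5 tested genes 0 passed in edgeR, 3 had an unadjusted p under 0.05, limma-voom called 0 and DESeq2 called 2 as lower. The median log2 fold change was -0.56. Bsg, the close relative basigin, measured 348 ± 77.6 CPM in tumor mice and 502 ± 45.6 CPM in controls (SD, n = 4 each), a log2 difference of -0.53 ± 0.17 (adjusted p = 0.0593, edgeR). In edgeR, Bsg passed without tumor library 1 (adjusted p = 0.0207), with upper-quartile factors (adjusted p = 0.0422) and with the stricter count filter (adjusted p = 0.0442). It also passed in the DESeq2 test (adjusted p = 0.0171), so its call was near the threshold. The list had 1 fall without tumor library 2 or control library 4. The lactate exporter gene Slc16a3 showed a log2 difference of -1.02 ± 0.41 (adjusted p = 0.108), and Slc16a7, a transporter that embigin escorts, had one of -0.56 ± 0.98 (adjusted p = 0.725).

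**Figure D3:**
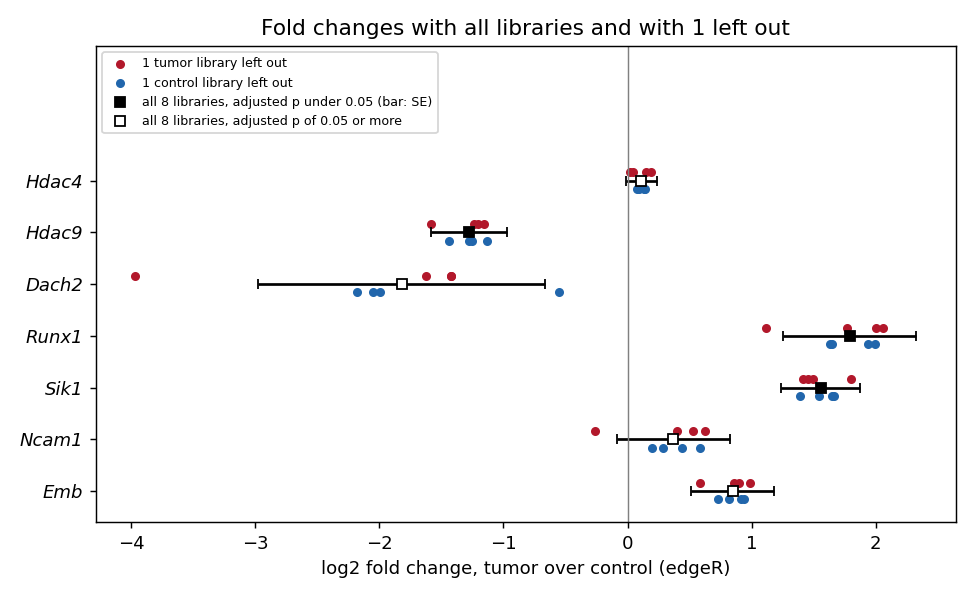
Log2 fold change of tumor over control for the 7 genes (squares, bars show the SE; filled where the adjusted p is under 0.05), with the values after leaving out 1 tumor library (red) or 1 control library (blue). Sik1 stays between 1.39 and 1.80 and Hdac9 between -1.59 and -1.13, whereas Dach2 ranges from -3.97 to -0.55 and Ncam1 crosses 0.

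Most of the genes that denervation is known to induce did not pass in the same muscles, and those that did mostly rose. Of 15 such genes outside the 7, 14 were tested, 4 rose and 1 fell, beside 19.8% of all genes in either direction, with a median log2 fold change of 0.92 beside 0.00 over all genes. Gadd45a, a growth arrest gene that HDAC4 induces in mouse, rose 3.59-fold, to 60.3 ± 9.31 CPM in tumor mice against 16.8 ± 5.32 CPM in controls (SD, n = 4 each; log2 fold change 1.84 ± 0.23, adjusted p = 0.00294, edgeR). Ankrd1, a stretch-responsive sarcomere gene, rose 11.4-fold (adjusted p = 0.0215; 5.09-fold without tumor library 4), and the acetylcholine receptor subunit gene Chrnb1 rose 2.20-fold (adjusted p = 0.0242). The AMP deaminase gene Ampd3 rose 3.25-fold (adjusted p = 0.0336). Myod1, a myogenic factor that denervation raises in rodents, fell 2.69-fold, to 9.84 ± 3.02 CPM in tumor mice against 26.5 ± 6.27 CPM in controls (log2 fold change -1.43 ± 0.24, adjusted p = 0.00528). Gadd45a and Myod1 were called with any single library left out. The Ankrd1 call was lost without tumor library 3 or control libraries 1, 2 or 3, and the Chrnb1 call without tumor library 3 or control libraries 1, 2 or 4. The Ampd3 call held in 2 of the 8 such fits, those without tumor library 1 or control library 4. The count of rises was 1 without tumor library 3 or control library 2 and 2 without control libraries 1 or 3.

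Myogenin, the target that Dach2 and HDAC9 repress, did not pass. Myog measured 1.65, 2.40, 3.66 and 17.6 CPM in tumor libraries 1 to 4, against 5.53, 3.44, 3.01 and 2.57 CPM in control libraries 1 to 4. Tumor library 4 was far above the rest, and tumor libraries 1 and 2 lay below all controls. In log2 units the difference was 0.80 ± 0.68 (SE; adjusted p = 0.432, edgeR). The receptor subunit gene Chrna1 was also highest in tumor library 4, at 126 CPM, with 8.54 to 10.3 CPM in the rest of its group and 5.27 to 23.7 CPM in controls (adjusted p = 0.229).

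**Figure D4:**
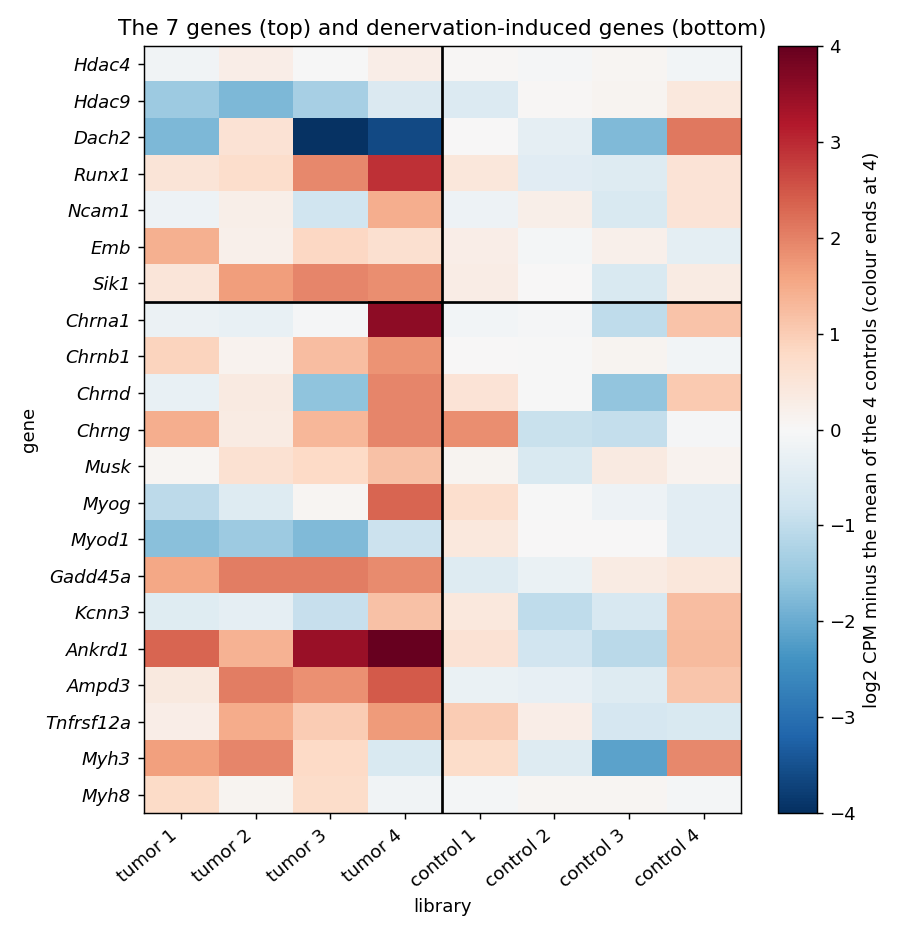
Log2 CPM of the 7 genes (top) and of 14 denervation-induced genes (bottom) in each library, minus the mean of the 4 controls, in colour (red above, blue below, colour ends at 4). Tumor library 4 holds the highest tumor value of Runx1, Ncam1, Chrna1 and Myog, and Dach2 is lowest in tumor library 3.

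The genes most alike in pattern were sought by the root mean square difference between profiles of log2 CPM over the 8 libraries, each centred on its own mean, among 12257 genes. Nearest to Sik1 were the actin-binding sarcomere gene Nrap (difference 0.29) and the kinase gene Akt1 (0.30). Runx1 was nearest to Spsb2 (0.29), an adaptor of ubiquitin ligases, and to the NF-kB subunit gene Nfkb2 (0.33). Hdac9 was nearest to Il18bp (0.27), a cytokine-binding protein gene, and to the retinoic acid receptor gene Rarb (0.29). Dach2 was nearest to Mb (0.46), the myoglobin gene of oxidative fibres, and to the lipoprotein lipase gene Lpl (0.66). Hdac4 was nearest to Copb1 and Prdx1 (0.07 each), Ncam1 to Kcnq5 (0.28) and Hopx (0.30), and Emb to Phc1 (0.17) and Strada (0.21).

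Per length (CPM per kilobase), the order of the 7 genes in tumor mice was Sik1, Hdac4, Runx1 (2.21 ± 1.77 CPM per kilobase), Ncam1 (1.20 ± 0.877), Emb (0.633 ± 0.236), Hdac9 (0.319 ± 0.125) and Dach2 (0.127 ± 0.198). In controls it was Hdac4, Sik1, Ncam1 (0.935 ± 0.322), Hdac9 (0.776 ± 0.204), Runx1 (0.641 ± 0.252), Dach2 (0.451 ± 0.535) and Emb (0.350 ± 0.0710). In tumor mice neighbours in this order differed by less than the larger of their SDs (n = 4), except Hdac4 against Runx1 and Emb against Hdac9. In controls the steps from Hdac4 to Sik1 and from Sik1 to Ncam1 exceeded the larger SD, and those among the last 5 genes did not. Lengths were those of the longest coding transcript, so the limit given for the Hdac9 share holds here.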

How the data were processed

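Messenger RNA from the quadriceps of 4 tumor-bearing and 4 control mice was sequenced, 1 library a sample, per the labels' protocols. The authors deposited estimated counts for 53819 gene symbols, 9.00% of the values being fractional. The submitters' processing notes name build GRCm39, the aligner STAR 2.7.9a, the quantifier Salmon 1.10.1, the trimmers Trim Galore 0.6.7 and cutadapt 3.4, and R 4.2.2. The sources used here do not state the annotation or the strand setting, so reads of overlapping genes could be shared.

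Counts were rounded. The edgeR function filterByExpr (minimum count 10) kept 14070 genes with 99.9% of all counts, and libraries were scaled by TMM. Groups, taken from the sample titles, were compared by quasi-likelihood F tests in edgeR 4.0.16 under R 4.3.3, two-sided, with group as the only term and Benjamini-Hochberg adjustment. The SE is the log2 fold change over the square root of F. The biological coefficient of variation was 30.1%. The limit for low values is the level of 3 counts, which covers counting error only. The fit was tested on simulated data. Of 100 genes simulated with a 2-fold change 36 were called, and of 100 with a 4-fold change 80. Of 122 calls in all, 6 were of unchanged genes. No other genes were changed, so the adjusted threshold was stricter there than in the real data, which had 2781 calls. Replicates are separate samples per the labels, which name no litter or cage. Every pair of libraries differed by more than sampling noise.

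Transcript lengths came from GENCODE M21 and start regions from RefSeq (GRCm38.p6), matched by symbol. The 7 genes, the other gene lists and the libraries doubted for fibre type were chosen with earlier results of these data known. Named genes are the 7, up to 4 changed genes with the smallest p of each pathway list (or 2 where none changed) and the 2 genes nearest in pattern to each of the 7. Results on a few listed genes are not reported here. Other genes, such as Ampd3, Myog, Chrna1, Cd68, Pax7 and paralogs, were named after their values were seen. Alternatives were DESeq2 1.42.0 size factors and test, upper-quartile factors, limma-voom (limma 3.58.1), 2 other count filters, left-out libraries and the replicate number as a block.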

Additional observations from a re-analysis of the deposited data

Results flagged for a closer look

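Dach2 in tumor library 2 (2.17 CPM) was set far from the other 3 tumor libraries, the nearest of which was at 0.362 CPM: the gap was 0.846 of the range of the group, above Dixon's 95% critical value for 4 values. It was the single value so marked among 14 groups of 4 libraries examined, and chance marks about 1 in 20 groups of normally distributed values. The rule was applied to CPM, here from 11, 67, 1 and 2 counts in tumor libraries 1 to 4. In log2 CPM minus the control mean, these libraries were at -1.80, 0.59, -3.95 and -3.61. On that scale tumor library 2 stood less far apart for the range, so the mark depends on the scale. Tumor library 2 also had the highest slow and oxidative fibre marker sum of its group (1195 CPM) and the lowest Myh4 share (80.3%).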

How the results depend on the processing

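With 1 library left out, the count of all changed genes ran from 1110 to 2845 (2781 with all 8), that of the 7 genes higher in tumor mice from 1 to 2, and that of those lower from 0 to 2. The count of the 7 that were higher was 1, not 2, with upper-quartile factors, by limma-voom and with the replicate block, in each case through the loss of Runx1. The log2 fold change of Ncam1 turned negative without tumor library 4 (-0.27), and the left-out fits of Ncam1 ran from -0.27 to 0.63. Sik1 kept its call in all 16 alternatives, Hdac9 in 14 and Runx1 in 7. Hdac4 and Emb passed in none of those that gave them a value. The stricter filter removed Dach2 and Emb. Without control library 4 and tumor library 2 together, 2 of the 7 genes were higher and 1 lower, the kinase list had 3 rises and 2 falls, the early CREB targets 2 and 2, the embigin list 0 and 2, and the denervation-induced genes 4 and 1. Upper-quartile scaling gave 1169 higher and 1547 lower genes, against 1552 and 1229 with TMM.

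The replicate numbers are shared by the groups, but nothing in the labels ties the mice of a number together. Correlations between same-numbered libraries of their deviations from the group means were 0.03, 0.13, 0.20 and 0.02, so the libraries were not treated as pairs, and not every library correlated best with its own number. With the replicate block 1932 genes were called, Runx1 had an adjusted p of 0.0528, Sik1 0.0368 and Hdac9 0.0197. Slc16a3 passed with the block (-1.11 ± 0.23 SE in log2 units, adjusted p = 0.0253) and Dusp1 did not (adjusted p = 0.0781), while of the slow and oxidative markers 0 fell, of the satellite cell markers 1 fell and of the white blood cell markers 0 rose. Low depth limits Dach2 and Emb, which were read from 1 to 177 counts and 21 to 85 counts a library.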

Other observations

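Tumor library 4 held the highest value among the 4 tumor libraries in 11 of the 14 tested denervation-induced genes (78.6%) and in 4 of the 7 regulators (57.1%: Hdac4, Hdac9, Runx1 and Ncam1), beside 29.4% of all 14070 genes. This was looked for after the values were seen, and no test was made of it. Hdac4 was nearly tied, at 73.1 CPM in tumor library 4 and 73.0 CPM in tumor library 2. Hdac9 fell in tumor mice, so its highest tumor value (3.96 CPM) was the one nearest to the controls. Among the values of tumor library 4 were 126 CPM of Chrna1, 17.6 CPM of Myog and 9.36 CPM of the receptor subunit gene Chrnd, against 0.739 to 3.08 CPM of Chrnd in the other tumor libraries and 0.752 to 5.04 CPM in controls. The library also had the highest TMM factor (1.22, against 0.961 to 1.02 in the other tumor libraries and 0.896 to 1.01 in controls), the lowest summed level of myofibre markers (105232 CPM) and the highest of white blood cell markers (68.0 CPM). Whether these features are linked was not tested.

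Of 7 fibro-adipogenic markers, 0 rose and 1 fell (Col3a1; 0 fell without tumor library 3 or control libraries 1, 2 or 3, and 2 fell without tumor libraries 1 or 2 or control library 4), with summed levels of 562 to 1166 CPM in tumor libraries and 738 to 1237 CPM in controls.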
